A study of Mus musculus with 19 samples.

Results

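The genes described are 10 genes of neutrophil recruitment, 5 that encode attractants or growth factors for neutrophils (Cxcl1, Cxcl2, Cxcl3, Cxcl5 and Csf3) and 5 that mark neutrophils themselves (Csf3r, Cxcr2, Ly6g, Retnlg and Mmp8). They were taken by symbol from the 34807 genes of the count table, and all 10 were found and passed the filter on low counts. RNA had been taken from mouse skin tumours in which the BRAFV600E oncogene was switched on under 1 of 3 promoters of the epidermis, and from normal skin. There were 6 Ivl:BRAFV600E, 5 K5:BRAFV600E and 4 K14:BRAFV600E tumours, labelled squamous cell carcinoma, and 4 samples of wild-type (WT) skin.

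The oncogene was driven by a tamoxifen-inducible Cre recombinase under the promoter of Ivl, Krt5 or Krt14. The Krt5 and Krt14 promoters (K5/K14) target basal stem cells, and the Ivl promoter targets cells committed to differentiation. Per the labels all mice were female, and recombination was induced in mice of 7 to 20 weeks, a wider range than the study's methods give. The study's methods give a C57BL/6J background, with tamoxifen on the shaved back for the Ivl line and 4-hydroxytamoxifen for the K5 and K14 lines, and take the normal skin from control littermates. Each library was made from whole tissue, so tumour cells, stroma, blood and infiltrating cells were measured together, and fewer cells of a type cannot be told apart from less RNA per cell. Ivl tumours arose later than K5/K14 tumours and at several body sites, and the labels do not give the site of a library.

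Neutrophils leave the blood along gradients of small CXC chemokines. Cxcl1, Cxcl2, Cxcl3 and Cxcl5 bind the receptor Cxcr2 on the neutrophil, while Csf3 (G-CSF) acts through its receptor Csf3r to increase neutrophil output from the marrow and to prolong neutrophil life. In skin, keratinocytes and myeloid cells make these factors in response to IL-1, IL-36, IL-17 and TNF, largely through the transcription factor NF-kB.

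The attractant genes lie on the forward strand of GRCm38. Cxcl5 (ENSMUSG00000029371) is at chr5:90759360-90761624, Cxcl3 (ENSMUSG00000029379) at chr5:90786103-90789600, Cxcl1 (ENSMUSG00000029380) at chr5:90891241-90893115 and Cxcl2 (ENSMUSG00000058427) at chr5:90903871-90905938, so the chemokine genes form a cluster, whereas Csf3 (ENSMUSG00000038067) is at chr11:98701263-98703629. The markers, also on the forward strand, are dispersed. Cxcr2 (ENSMUSG00000026180) is at chr1:74153989-74161246, Csf3r (ENSMUSG00000028859) at chr4:126024550-126044440, Mmp8 (ENSMUSG00000005800) at chr9:7558456-7568485, Ly6g (ENSMUSG00000022582) at chr15:75155240-75159126 and Retnlg (ENSMUSG00000022651) at chr16:48872621-48874496. No exon of the 10 genes overlaps an exon of another gene. Cxcl2 and Cxcl3 share a stretch of 116 bases at 98.3% identity and Csf3r shares 1518 bases at 96.8% with a processed pseudogene, so reads from these stretches could have been assigned to either copy.

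Cxcl1, Cxcl2, Cxcl3 and Cxcl5 all rose in the tumours, and the stretches just upstream of Cxcl1, Cxcl2 and Cxcl3 are shown. Matches to the NF-kB motif (3 G, any 2 bases, 3 T and 2 C, on either strand) are in capitals. The stretches end before the first annotated transcript starts and are 5′ to 3′ on the forward strand, from RefSeq on GRCm38.p6, at chr5:90891135-90891240, chr5:90903789-90903870 and chr5:90785991-90786100 in the order given.
Cxcl1: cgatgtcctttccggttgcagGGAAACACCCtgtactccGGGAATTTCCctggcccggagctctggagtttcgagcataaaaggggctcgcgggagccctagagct
Cxcl2: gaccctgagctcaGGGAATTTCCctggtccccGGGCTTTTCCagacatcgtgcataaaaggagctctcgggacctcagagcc
Cxcl3: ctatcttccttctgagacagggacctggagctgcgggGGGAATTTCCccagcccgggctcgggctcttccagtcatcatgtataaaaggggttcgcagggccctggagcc

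All 3 chemokine promoters held the same 10 bases, GGGAATTTCC, at positions -71 to -62 in Cxcl1, -97 to -88 in Cxcl2 and -73 to -64 in Cxcl3, counted from the RefSeq start. Cxcl1 held a further match on the reverse strand (-89 to -80, shown as GGAAACACCC) and Cxcl2 a further one on the forward strand (-78 to -69). Within the 250 bases before the start, a match on either strand was present in 447 of 27025 genes with a RefSeq promoter (1.65%), and the shared 10 bases in 28 genes (0.104%). None of the 5 marker genes, all of which had a promoter in the table, held a match, and the AP-1 motif TGANTCA, present in 7.82% of genes, was in no promoter of the 8 members that had one. A match is a description of the sequence and no measurement of binding.

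Library totals ranged from 45715309 to 72609771 counts. These totals exceed the read number that the study's methods give, and the reason was not tested. For 96.6% of 13954 genes, the mean of 4 libraries (Ivl tumours 1, 2 and 3 and K5 tumour 1) differed by less than 0.1 log2 from that of the remaining 15, although no normal skin is among the 4. This was the highest share among 3876 possible sets of 4, the next being 64.1%. The members followed it: the mean of Cxcl1 was 14.3 CPM (counts per 1000000 counts of the library) in the set and 14.3 CPM outside it, and over the 10 members the log2 ratio ran from -0.15 to 0.22. The deposited counts had been adjusted for a sequencing batch that the labels do not assign, so the counts and fold changes of the members are given over all 19 libraries and again over the 15 outside the set (3 Ivl, 4 K5, 4 K14 and 4 skin). In the remainder, CPM is scaled by TMM (trimmed mean of M values), and the test is the edgeR quasi-likelihood F test, two-sided, with p-values adjusted over all 32031 genes. The labels do not say that each library came from a different mouse, so p-values measure the spread between these samples. Both tumour comparisons with skin use the same 4 skin libraries.

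In both tumour types the attractants were far above skin, and the neutrophil markers split. All 5 attractants rose in Ivl and in K5/K14 tumours, by 16.4-fold (Cxcl1 in Ivl) to 60.2-fold (Cxcl3 in K5/K14) and more for Cxcl5. Of the 5 markers, Cxcr2, Mmp8 and Ly6g rose in both, while Csf3r and Retnlg did not pass the test in either. This made 8 of 10 members raised in Ivl tumours, where 20.4% of all genes were raised, and 8 of 10 in K5/K14 tumours, where 23.2% were raised. The median log2 fold change was 5.42 for the attractants in both comparisons, and 2.66 (Ivl) and 3.36 (K5/K14) for the markers, against -0.46 and -0.60 over all genes tested. Within the 15 libraries the counts were again 8 and 8, with 22.2% and 23.9% of all genes raised. 

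**Figure D1:**
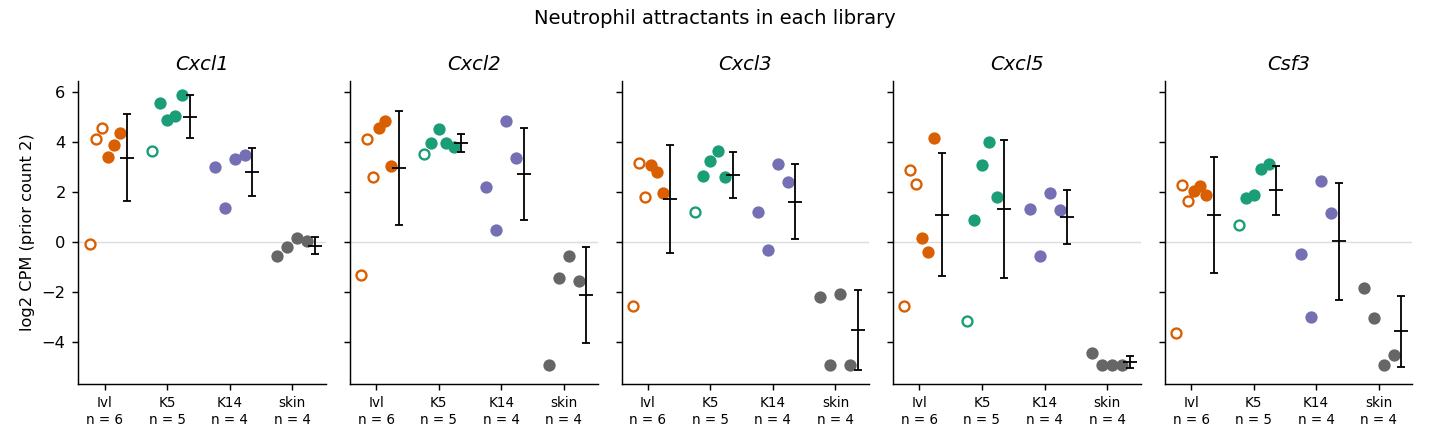
Level of each attractant (log2 CPM with a prior count of 2, y axis) in every library by group (x axis), with open circles for the 4 libraries of the set that stands apart and black bars for mean ± SD of the group. Skin libraries lie at the bottom of each panel, and the open circle far below the other Ivl tumours is Ivl tumour 1.

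Cxcl1, a chemokine of injured and inflamed epithelium, was at 0.646, 0.832, 1.11 and 1.0 CPM in the 4 skin libraries. It ran from 0.907 through a median of 16.4 to 23.6 CPM in the Ivl tumours. The K5 tumours held 12.7, 47.6, 29.4, 33.5 and 59.6 CPM and the K14 tumours 8.12, 2.56, 10.1 and 11.2 CPM. Every K5 and K14 tumour lay above every skin library, and 5 of 6 Ivl tumours did, the exception being Ivl tumour 1. The log2 fold change against skin was 4.03 ± 0.88 (SE, adjusted p = 0.0017) for Ivl and 4.73 ± 0.90 (adjusted p = 0.0003) for K5/K14 tumours. Within the 15 libraries it was 4.10 ± 0.85 and 4.81 ± 0.82.

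Cxcl2, which macrophages and neutrophils also make in quantity, was at 0, 0.337, 0.656 and 0.312 CPM in skin. Ivl tumours ranged from 0.369 to 28.9 CPM with a median of 13 CPM. K5 tumours were the tightest group, at 11.5, 15.6, 22.9, 15.6 and 14.0 CPM, and K14 tumours the widest for their number, at 4.54, 1.38, 28.5 and 10.3 CPM. All K5/K14 tumours were above skin, and again only Ivl tumour 1 fell inside the skin range. Cxcl2 rose by 5.42 ± 1.15 on the log2 scale in Ivl (adjusted p = 0.0013) and 5.38 ± 1.13 in K5/K14 tumours (adjusted p = 0.00069).

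Cxcl3, the neighbour with which Cxcl2 shares sequence, was lower but had the same shape. Skin held 0.185, 0, 0.206 and 0 CPM, and Ivl tumours held 0.138 to 8.98 CPM (median 5.44). K5 tumours held 2.29, 6.25, 9.44, 12.5 and 6.11 CPM and K14 tumours 2.29, 0.784, 8.82 and 5.30 CPM. Apart from Ivl tumour 1 every tumour was above every skin library. The log2 fold change was 5.75 ± 1.22 (Ivl, adjusted p = 0.0013) and 5.91 ± 1.21 (K5/K14, adjusted p = 0.00055).

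Cxcl5, a chemokine made mainly by epithelial cells, was all but undetected in skin, with 1, 0, 0 and 0 counts. A skin library at its 3-count floor would read 0.0327 CPM on average, and set against that floor Cxcl5 rose at least 164-fold in Ivl tumours (adjusted p = 0.00052). In K5/K14 tumours the rise was at least 133-fold (adjusted p = 0.00035). These bounds cover counting error only. Ivl tumours held 0.138 to 17.9 CPM (median 3.03), K5 tumours 0.0794, 1.80, 8.38, 15.9 and 3.46 CPM, and K14 tumours 2.51, 0.645, 3.83 and 2.40 CPM. The lowest K5 value came from K5 tumour 1, a library of the set of 4, yet all 15 tumours exceeded all skin libraries. Without the set the bounds were 201-fold and 149-fold.

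Csf3, the granulocyte growth factor, was at 0.251, 0.0899, 0 and 0.00975 CPM in skin. Ivl tumours held 0.0461 to 4.88 CPM, with a median of 3.90 CPM. K5 tumours held 1.57, 3.39, 3.63, 7.58 and 8.66 CPM and K14 tumours 0.684, 0.0922, 5.39 and 2.21 CPM. Ivl tumour 1 (3 counts) and K14 tumour 2 (4 counts) were inside the skin range and the other 13 tumours above it. Csf3 rose by 5.32 ± 1.33 in log2 terms in Ivl (adjusted p = 0.0047) and by 5.42 ± 1.32 in K5/K14 tumours (adjusted p = 0.002).

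Over the 15 libraries outside the set, the log2 fold changes in Ivl tumours were 5.93 ± 1.07 for Cxcl2, 6.02 ± 1.11 for Cxcl3 and 5.62 ± 1.29 for Csf3. In K5/K14 tumours they were 5.40 ± 0.99, 6.02 ± 1.06 and 5.54 ± 1.22 in the same order, so no attractant lost its call.

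Ivl tumour 1 and K14 tumour 2 were the lowest 2 tumours for Cxcl1, Cxcl2, Cxcl3 and Csf3, while for Cxcl5 the lowest were K5 tumour 1 and Ivl tumour 1. Summed, the 5 attractants came to 1.6 CPM in Ivl tumour 1 and 5.46 CPM in K14 tumour 2, to 18.2 to 91.8 CPM in the other 13 tumours, and to 1.09 to 1.97 CPM in skin. In K5/K14 tumours 4 of 5 attractants did not overlap skin, as did 16.7% of all genes on the high side. In Ivl tumours this held for 1 of 5, Cxcl5 (13.2% of all genes), and for 5 of 5 in the 3 Ivl tumours outside the set (22.3% of all genes).

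**Figure D2:**
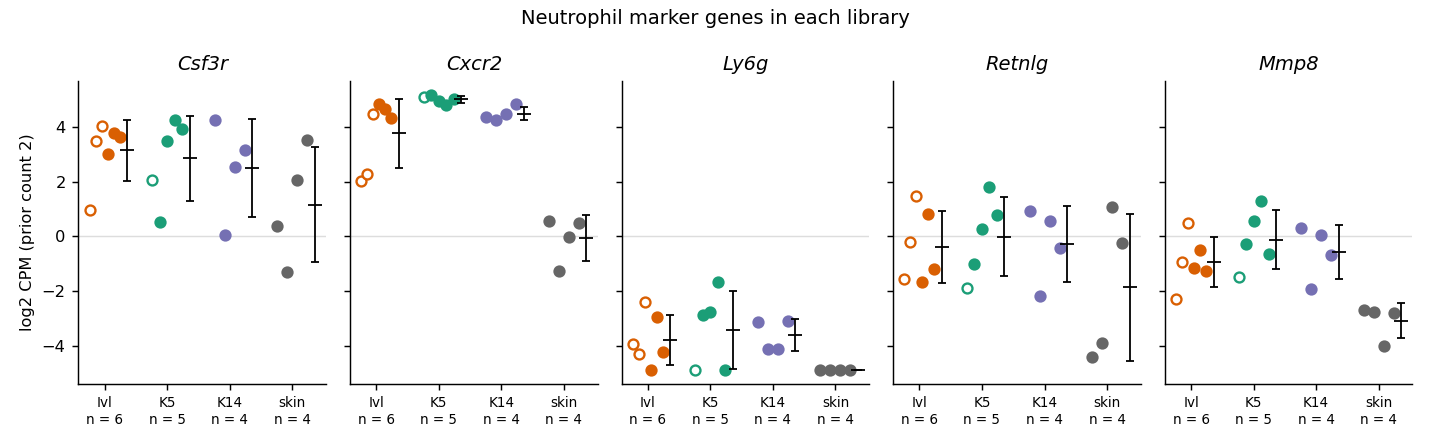
Level of each neutrophil marker (log2 CPM with a prior count of 2, y axis) in every library by group (x axis), drawn as for the attractants with mean ± SD. Cxcr2 and Mmp8 separate tumours from skin, Csf3r and Retnlg overlap, and Ly6g lies at a few counts.

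Among the markers, Cxcr2, the receptor of all 4 chemokines, was both the highest and the most even in tumours. Skin held 1.45, 0.382, 0.956 and 1.38 CPM. K5 tumours held 33.8, 36.1, 30.6, 28.1 and 32.6 CPM, K14 tumours 20.6, 19.3, 22.1 and 28.5 CPM, and Ivl tumours 4.04 to 28.3 CPM with a median of 21.3 CPM. All 15 tumours were above all skin libraries, and the 2 lowest Ivl tumours (1 and 2, at 4.04 and 4.78 CPM) belong to the set of 4. Cxcr2 rose by 4.07 ± 0.54 on the log2 scale in Ivl (adjusted p = 2.3e-05) and by 4.75 ± 0.55 in K5/K14 tumours (adjusted p = 2.8e-06). Within the 15 libraries the values were 4.56 ± 0.36 and 4.71 ± 0.34. Besides neutrophils, keratinocytes can also express this receptor.

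Mmp8, the neutrophil collagenase stored in granules, was low everywhere, with 3 to 11 counts per skin library and 10 to 104 per tumour. Skin held 0.119, 0.112, 0.0281 and 0.107 CPM, and Ivl tumours 0.169 to 1.38 CPM (median 0.455). K5 tumours held 0.318, 0.785, 1.42, 2.43 and 0.605 CPM and K14 tumours 1.19, 0.230, 1.01 and 0.585 CPM. No tumour overlapped skin. The log2 fold change was 2.66 ± 0.68 (Ivl, adjusted p = 0.0052) and 3.36 ± 0.69 (K5/K14, adjusted p = 0.00046), and over the 15 libraries 2.41 ± 0.65 and 3.48 ± 0.59.

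Ly6g, the surface antigen by which mouse neutrophils are usually sorted, had 0 counts in all 4 skin libraries and at most 12 in any tumour. The Ivl tumours held between 0 and 10 counts, the K5 tumours 0, 4, 5, 12 and 0, and the K14 tumours 4, 1, 1 and 4. It passed the test against skin (adjusted p = 0.019 in Ivl and 0.005 in K5/K14), but 3 tumours had none. Against a floor of 3 counts per skin library the mean rose at least 1.6-fold in Ivl tumours and at least 2.40-fold in K5/K14 tumours, so the depth leaves the size of the change largely undetermined.

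Csf3r, the receptor of Csf3, overlapped between tumours and skin. Skin held 1.25, 0.371, 4.09 and 11.6 CPM and Ivl tumours 1.94 to 16.3 CPM (median 11.7). K5 tumours held 4.10, 1.39, 11.3, 19.1 and 15.2 CPM and K14 tumours 19.2, 0.991, 5.70 and 8.87 CPM. The log2 fold change was 1.29 ± 0.87 in Ivl (95% interval -0.43 to 3.0, adjusted p = 0.23) and 1.14 ± 0.83 in K5/K14 tumours (-0.48 to 2.76, adjusted p = 0.23). Without skin library 4, Csf3r passed in K5/K14 tumours at 2.31 (adjusted p = 0.039), so that library decided the call. The same omission moved Ivl tumours to 2.45 (adjusted p = 0.057). Over the 15 libraries Csf3r was at 1.39 ± 1.04 and 1.24 ± 0.88.

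Retnlg, a resistin-like secreted protein of mature neutrophils, overlapped too. Skin held 0.0132, 0.0337, 2.06 and 0.810 CPM, a range that took in 13 of 15 tumours. Ivl tumours held 0.278 to 2.76 CPM (median 0.621), K5 tumours 0.238, 0.456, 1.17, 3.43 and 1.66 CPM, and K14 tumours 1.87, 0.184, 1.44 and 0.710 CPM. The log2 fold change was 0.52 ± 1.01 (Ivl, interval -1.45 to 2.50) and 0.76 ± 0.96 (K5/K14, interval -1.12 to 2.64), with adjusted p = 0.68 and 0.5. Over the 15 libraries it was 0.13 ± 1.19 and 0.89 ± 0.98.

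The spread of both genes within skin moved with transcripts of leukocytes and of stroma. Skin libraries 3 and 4, the high ones for Csf3r and Retnlg, also had the higher levels of Ptprc (CD45, on all leukocytes), at 93.3 and 98.7 CPM against 22.3 and 27.3 CPM in libraries 1 and 2. The 10 macrophage and monocyte genes summed to 810 and 1127 CPM there and to 236 and 127 CPM in libraries 1 and 2. Fibroblast genes summed to 10060.2 and 13857 CPM in libraries 3 and 4 and to 2508 and 714 CPM in libraries 1 and 2, and endothelial genes to 235 and 307 CPM and to 42.7 and 55.5 CPM. Among the attractants, Cxcr2 and Mmp8, only Cxcl1 was likewise higher in both libraries 3 and 4 (1.11 and 1.0 CPM) than in libraries 1 and 2 (0.646 and 0.832 CPM). The part of these cells in the values was not tested.

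**Figure D3:**
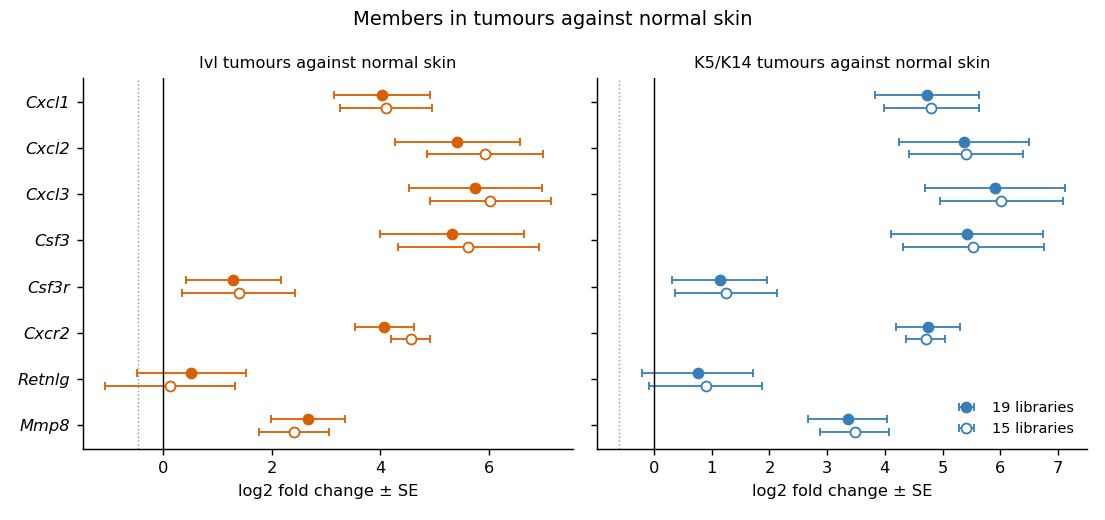
Log2 fold change ± SE (x axis) of 8 members in Ivl (left) and K5/K14 tumours (right) against normal skin over 19 libraries (filled) and over 15 (open), with a dotted line at the median of all genes over 19 libraries. Cxcl5 and Ly6g are not drawn because skin was at or near 0, and in both panels Csf3r and Retnlg lie nearest to 0.

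Compared per kilobase of exon, the order of the members changed with the group. In K5 tumours Cxcl1 came first (19.5 CPM per kb), then Cxcr2 (10.6) and Cxcl2 (7.70). K14 tumours were led by Cxcr2 (7.42 CPM per kb), Cxcl2 (5.40) and Cxcl1 (4.26), and Ivl tumours by Cxcl1 (7.87), Cxcl2 (6.86) and Cxcr2 (5.74). Skin was led by the receptor and marker genes Retnlg (1.23 CPM per kb) and Csf3r (1.2), followed by Cxcl1 (0.478). Ly6g was last in every group and Mmp8 second to last in every tumour group. The libraries of neighbours in these orders overlapped in all cases except Mmp8 and Ly6g in K14 tumours. For Cxcl1, Cxcl2 and Cxcl3 the annotated exons together span the whole gene, so their levels per length are lower than per spliced transcript.

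Ivl and K5/K14 tumours were compared to ask whether the population that received the oncogene was reflected in recruitment genes. None of the 10 members differed by edgeR (0 at an adjusted p under 0.05, 0 at an unadjusted one, and 0 under any alternative including DESeq2), where 2.36% of all genes did. Log2 differences (Ivl minus K5/K14) ran from -0.69 (Cxcl1, 95% interval -1.89 to 0.50) to 0.31 (Cxcl5, interval -1.42 to 2.03). For Cxcr2 the difference was -0.68 (interval -1.41 to 0.06) and for Mmp8 -0.69 (interval -1.68 to 0.29). For 7 of 10 members the interval reached beyond 2-fold in both directions, so equality was not shown. Within the 15 libraries 0 of 10 differed and 0.41% of all genes did, and Cxcr2 was at -0.15 (interval -0.71 to 0.42).

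Between K5 and K14 tumours, Cxcl1 was the member that stood out. Its K5 values (12.7 to 59.6 CPM) lay wholly above its K14 values (2.56 to 11.2 CPM), as did those of 2.04% of all genes. The mean was 36.6 ± 17.9 CPM (SD, n = 5) against 7.99 ± 3.84 CPM (n = 4). The log2 difference of 2.19 ± 0.64 did not pass the adjustment over all genes (adjusted p = 0.63), in a comparison in which edgeR called 0% of all genes (1945 at an unadjusted p under 0.05). Over the 15 libraries it passed, at 2.41 ± 0.39 (adjusted p = 0.046, 17 genes or 0.0532% called), with 4 K5 tumours above 4 K14 tumours and 3.45% of all genes higher without overlap. Of the K5 and K14 tumours that fit left out only K5 tumour 1, the lowest K5 tumour for Cxcl1 (12.7 CPM). With that tumour alone left out, edgeR called 0 genes. The DESeq2 Wald test on 19 libraries also called Cxcl1 (adjusted p = 0.03, with 0.543% of all genes called). The call therefore depends on the fit. The other 9 members were at 0.23 to 1.33 log2 higher in K5 tumours, none at an unadjusted p under 0.05. Ivl tumours overlapped both groups for Cxcl1.

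Cxcl2, Cxcl3 and Csf3 moved together over the 15 tumours. On log2 CPM, Pearson's r was 0.955 for Cxcl2 with Cxcl3, 0.938 for Cxcl3 with Csf3 and 0.919 for Cxcl2 with Csf3 (Spearman's rho 0.846, 0.804 and 0.746). By Pearson's r Cxcl5 was apart, from 0.438 (Cxcl2) to 0.645 (Cxcl3), and Cxcl1 was between, with r from 0.613 to 0.887. By rank this order was not clear. Spearman's rho with Cxcl2, Cxcl3 and Csf3 was 0.332, 0.514 and 0.596 for Cxcl1, and 0.211, 0.593 and 0.561 for Cxcl5. In the 11 tumours outside the set Pearson's r was 0.941 for Cxcl2 with Cxcl3 and 0.202 for Cxcl2 with Cxcl5. These are descriptions over tumours pooled from the Ivl, K5 and K14 lines, which share the batch adjustment and differ in library depth. Cxcl2 and Cxcl3 also share sequence.

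Among the markers Cxcr2 stood most apart. Retnlg went with Mmp8 (r = 0.862), Csf3r (0.754) and Ly6g (0.630). Mmp8 also went with Ly6g (0.738) and Csf3r (0.620), while Csf3r with Ly6g was at 0.273. Ly6g had at most 12 counts in any tumour, which limits its values. Cxcr2 was at 0.173 with Csf3r, 0.181 with Retnlg and 0.187 with Ly6g. With Mmp8 it was at 0.443. In the 11 tumours outside the set Cxcr2 was at 0.026 with Csf3r and at 0.323 with Mmp8.

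Whether tumours with more attractant RNA also held more neutrophil marker RNA was tested over the 25 attractant and marker pairs in the 15 tumours. Tumours of the Ivl, K5 and K14 lines were pooled and not centred by line. Differences between the lines therefore enter the correlations and their p-values, and were not separated from differences between single tumours. All 25 Pearson and 23 of 25 Spearman correlations were positive, Pearson's r having a median of 0.522 and a range of 0.072 to 0.673, the highest being Cxcl3 with Mmp8 (Spearman's rho 0.607). By permutation test with 100000 resamples, 15 of 25 had an unadjusted p under 0.05 for r and 5 of 25 for rho, and 0 passed the Benjamini-Hochberg adjustment over the 25 (smallest adjusted p = 0.069, and 0.14 for Spearman's rho). Cxcl3 with Mmp8 had a permutation p of 0.0037 for r and 0.019 for rho. In the 11 tumours outside the set all 25 were again positive (median 0.475) and 0 passed. With the 2 tumours farthest from the attractant's median left out (Ivl tumour 1 with K14 tumour 2, or with K5 tumour 1 for Cxcl5), the median fell to 0.115 and 16 of 25 stayed positive. Leaving out the most extreme attractant levels by itself narrows the range and lowers r, so this fall cannot decide whether the relation rests on those tumours. Over the 15 tumours r ran from 0.072 to 0.405 for Ly6g, which had few counts, and from 0.139 to 0.597 for Cxcr2.

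**Figure D4:**
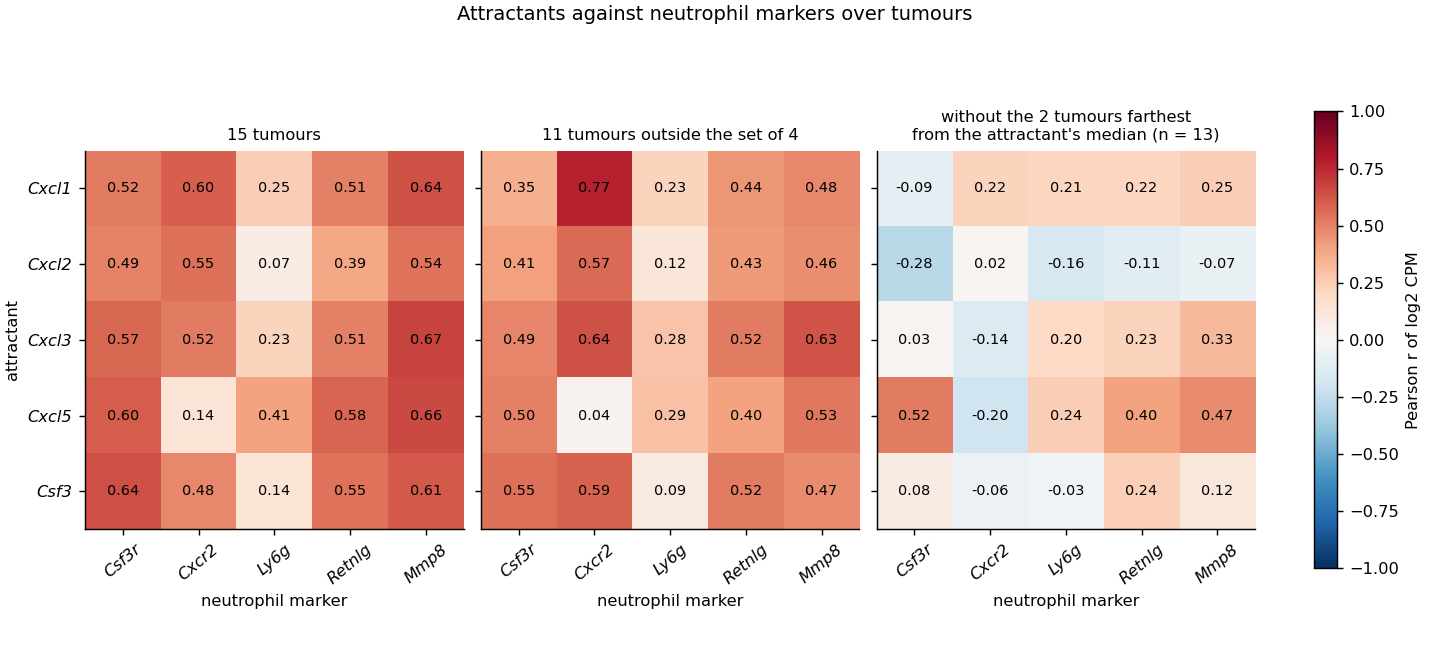
Pearson's r of log2 CPM for each attractant (rows) with each neutrophil marker (columns) over 15 tumours (left), 11 tumours outside the set (middle) and 13 tumours after leaving out those with the most extreme attractant level (right), on a scale from blue (-1) through white (0) to red (1). Most cells are red on the left and pale on the right.

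Outside the members, the genes most like the mean z score of the attractants over the 15 tumours, among 15359 genes with a mean of at least 1 CPM, were Slc20a1 (r = 0.916), Prss22 (0.905) and Akr1b8 (0.903). Those most like the mean of the markers were Ctdnep1 (r = 0.925), Ifitm1 (0.906) and Hdc (0.873), the last a histidine decarboxylase of neutrophils and mast cells. With the 11 tumours outside the set none of the 3 genes found for the attractants was among the closest 8, while Ctdnep1 (0.954) and Hdc (0.891) were again among those closest to the markers.

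A list of 16 genes held cytokines known to induce the attractants and the NF-kB regulators Nfkbia and Nfkbiz. Of these, 11 rose in Ivl and 9 in K5/K14 tumours against skin and none fell, where 20.4% and 23.2% of all genes rose and 15.5% and 38.9% fell, with median log2 fold changes of 2.70 and 1.78. The IL-36 cytokines, made by keratinocytes, were the most abundant. Il36g was at 296 ± 166 CPM in Ivl tumours (SD, n = 6), 458 ± 119 CPM in K5/K14 tumours (n = 9) and 27.5 ± 5.36 CPM in skin (n = 4). Il36a rose by 5.16 ± 0.75 (adjusted p = 4.2e-05) and 5.0 ± 0.73 (adjusted p = 2.4e-05) on the log2 scale. The alarmin Il1a rose by 3.26 ± 0.50 in Ivl and 4.21 ± 0.51 in K5/K14 tumours, and Il1b by 4.03 ± 0.87 and 2.87 ± 0.80. Tnf did not pass in either (0.06 ± 0.69 and 0.27 ± 0.65), nor did Lif, Csf2, Il17c and Nfkbiz, a cofactor of NF-kB. Nfkbia, an inhibitor that NF-kB itself induces, rose by 1.23 ± 0.29 and 1.21 ± 0.28. Within the 15 libraries 13 and 9 of 16 rose.

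Il17a and Il17f, cytokines of T cells, were raised against skin in Ivl tumours and did not pass in K5/K14 tumours. Il17a was at 0.370 ± 0.566 CPM in Ivl tumours, from 0 to 1.5, and at 0.0198 ± 0.0373 CPM in K5/K14 tumours, and Il17f at 0.310 ± 0.327 and 0.0603 ± 0.0501 CPM. The direct comparison of Ivl with K5/K14 tumours did not pass for either (adjusted p = 0.054 and 0.11), so a difference between the tumour types was not shown.

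Other attractants for neutrophils did not move as a group. Of 7 listed, 6 could be tested. Ccl3 and Ccl4, chemokines of activated myeloid cells, rose in Ivl (2.90 ± 0.76 and 3.28 ± 0.72 in log2 terms) and in K5/K14 tumours (2.77 ± 0.73 and 2.52 ± 0.67). Ppbp, a further CXCR2 ligand stored in platelets, rose in Ivl tumours (adjusted p = 0.0061) and exceeded K5/K14 tumours (adjusted p = 0.032, not called within the 15 libraries), with values from 0.384 to 70.8 CPM that show how uneven it was. Pf4, the other platelet chemokine, did not pass (-1.04 ± 0.75 and -1.18 ± 0.68). Complement C3 fell by 3.04 ± 0.94 on the log2 scale in K5/K14 tumours and was at -1.57 ± 1.05 in Ivl tumours, where it passed over the 15 libraries (-3.37 ± 1.26, adjusted p = 0.037). The factors Csf1, Kitl and Cxcl12, which act on other leukocytes or on marrow retention of neutrophils, all fell in K5/K14 tumours (3 of 3, with 38.9% of all genes lowered) and none passed in Ivl tumours over the 19 libraries. Over the 15 libraries 2 of 3, Csf1 and Kitl, fell in Ivl tumours too (-1.16 ± 0.34 and -0.70 ± 0.24), where 32.7% of all genes were lowered. 

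Other receptors for chemoattractants gave 3 raised of 9 in each tumour type, the same 3 genes, against 20.4% (Ivl) and 23.2% (K5/K14) of all genes. Cxcr1 was at 0 in all skin libraries and at 0.206 ± 0.127 CPM in Ivl and 0.228 ± 0.153 CPM in K5/K14 tumours. The formyl peptide receptor Fpr1 and the leukotriene B4 receptor Ltb4r1 also rose, Ltb4r1 from 9.23 ± 1.76 CPM in skin to 29.9 ± 10.6 and 38.7 ± 6.63 CPM. C5ar1, Ptafr and Ackr1 fell in K5/K14 tumours, by 2.08 ± 0.64, 2.49 ± 0.63 and 2.91 ± 0.77 on the log2 scale. That is 3 of 9 lowered in a comparison in which 38.9% of all genes were lowered. Cxcr4, Fpr2 and Csf2rb did not pass in either tumour type.

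A wider list of 23 mature neutrophil genes had 17 raised in Ivl tumours, and 18 raised and 1 lowered in K5/K14 tumours, with median log2 fold changes of 4.75 and 3.94. Of all genes, 20.4% rose in Ivl tumours, and 23.2% rose and 38.9% fell in K5/K14 tumours. Of the 23, 11 had a mean of at least 1 CPM in skin, a tissue that also holds leukocytes, so this level does not measure specificity. Not all of the list is specific to neutrophils: the calprotectin genes S100a8 and S100a9 and the stefins are also made by activated keratinocytes. These were the most abundant, BC100530 reaching 1376 ± 1059.8 CPM in Ivl and 3138 ± 1269 CPM in K5/K14 tumours against 3.68 ± 2.17 CPM in skin. Counts of the stefin family may be split among near-identical copies. The stefin Stfa2l1 rose in both tumour types. Of genes more restricted to myeloid cells, Trem1 rose from 0.124 ± 0.0858 CPM in skin to 4.68 ± 2.76 and 2.65 ± 1.57 CPM, and Clec4d, Clec4e and Acod1 rose too. Fpr2, Padi4, Ncf1 and Pglyrp1 passed in neither, Cd177 passed in K5/K14 tumours only (1.49 ± 0.55, and 1.02 ± 0.57 in Ivl), and Il1r2 fell in K5/K14 tumours by 0.83 ± 0.26 on the log2 scale.

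Genes of neutrophil precursors, whose granule proteins are made in the marrow, were low in tumours and in skin. The 10 genes summed to 1.01 to 7.01 CPM in Ivl tumours, 0.699 to 10.6 CPM in K5/K14 tumours and 1.14 to 8.53 CPM in skin. Chil3 rose in both tumour types (2.95 ± 0.97 and 2.96 ± 0.94), Ltf passed in K5/K14 tumours (adjusted p = 0.048) with 1 K14 tumour at 5.25 CPM and a mean of 0.662 CPM, Elane fell in both and Prtn3 in K5/K14 tumours, while Mpo was at most 0.261 CPM in any library.

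Over the 19 libraries, markers of other cells also moved between tumours and skin. Keratinocyte genes, the check on the labelled tissue, summed to 30916 to 97566 CPM in tumours and 4936 to 10329 CPM in skin, and 4 of 5 rose in Ivl and 5 of 5 in K5/K14 tumours, none being at 0. Red blood cell genes summed to 36 to 444 CPM in tumours and 18.6 to 44.4 CPM in skin, with 4 and 5 of 5 raised. Ptprc fell in K5/K14 tumours by 1.63 ± 0.47 in log2 terms (adjusted p = 0.0064) and was at -1.11 ± 0.52 in Ivl tumours. The macrophage and monocyte genes summed to 251 to 721 CPM in tumours and 127 to 1127 CPM in skin. Of 6 mast cell genes only Kit changed, falling in both, and none of 5 eosinophil genes changed. Of 6 T cell genes 4 fell in K5/K14 tumours. Fibroblast and endothelial genes gave 1 lowered of 5 and 1 of 4 in K5/K14 tumours and no call in Ivl tumours, and all 4 skeletal muscle genes fell in K5/K14 tumours. These counts of lowered genes stand against 38.9% of all genes lowered in K5/K14 and 15.5% in Ivl tumours. The part of these cells in the levels of the members was not tested.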

How the data were processed

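One poly(A) library per sample was sequenced. Per the labels and methods, the authors checked reads with FastQC 0.11.8, trimmed them with Trim Galore, aligned them with HISAT2 2.1.0 to GRCm38 and counted them with featureCounts (Subread 1.6.3). The deposited values are estimated counts, since ComBat-seq had been applied by the authors to remove a difference between sequencing batches, which can pull group means together where batch and group are unequal. The values were whole numbers, so rounding changed none. No sample column of another series was present (0).

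Genes reaching 5 counts in any library were tested with edgeR 4.0.16 (R 4.3.3; TMM, robust quasi-likelihood), with K5 and K14 merged except when compared with each other, and genes were called at an adjusted p under 0.05. The design had assumed plain counts. SEs came from the fold change and F statistic, and intervals are 1.96 SE either way. Log2 CPM used a prior count of 2. A floor of 3 counts per library stood for 0. Scripts were tested on simulated data. Alternatives were DESeq2 1.42.0, its size factors, other filters, the set of 4 libraries left out or as a covariate, each library left out, a replicate block and K5 and K14 kept separate. No library duplicated another of its own group (37 pairs within groups, smallest chi-square per degree of freedom 25.9), and pairs across groups were not compared. The sequences, positions and names came from RefSeq and GENCODE M21 (34694 of 34807 identifiers matched), and strand use in counting is not given in the sources used here. All 10 members, and of each further list the most abundant genes and those whose call differed from the rest, were named, with the 3 genes most like the attractants and like the markers. Further genes of the lists were named after their values were seen. Members and lists were chosen with earlier results of these data known. The result of 1 gene of the further lists is not reported here.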

Additional observations from a re-analysis of the deposited data

Results flagged for a closer look

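In groups of 4 to 9 libraries, the distance of the highest or lowest library from its nearest neighbour was divided by the range of the group on the log2 CPM scale, for each member and group (Dixon's ratio). Of 49 groups tested 7 passed the 95% critical value, where chance gives about 1 in 20. Ivl tumour 1 was the lowest of the 6 Ivl tumours in 5 of the 7, with ratios of 0.752 for Cxcl1, 0.634 for Cxcl2, 0.765 for Cxcl3, 0.893 for Csf3 and 0.669 for Csf3r. These are not independent, since the 5 genes come from 1 library, which is also in the set of 4. Without it the log2 fold change of Ivl tumours against skin was 4.28 for Cxcl1, 5.67 for Cxcl2, 6.01 for Cxcl3 and 5.58 for Csf3, and 8 of 10 members were again raised. In normal skin, library 1 was the highest for Cxcl5 with a ratio of 1.0, which came from a single count, and library 3 the lowest for Mmp8 with a ratio of 0.914 (3 counts).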

How the results depend on the processing

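The count of members raised against skin was 8 in Ivl tumours, and 7 to 8 over 27 alternatives. It was 8 in K5/K14 tumours, and 7 to 9 over 27 alternatives, the 9 coming without skin library 4. No member changed between Ivl and K5/K14 tumours in any of 27 alternatives. Between K5 and K14 tumours the count of 0 became 1 (Cxcl1) with DESeq2 and 1 without the set of 4 libraries. No attractant and marker pair passed in any of the 3 alternatives for the correlations. Ly6g was not tested after filterByExpr, which removed it. DESeq2 size factors in place of TMM moved the median over all genes by -0.13 (Ivl against skin) and -0.11 (K5/K14 against skin) in log2 terms, and no member changed direction with them.

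Replicate numbers did not pair libraries: over 25 pairs of libraries with the same number in different groups, deviations from the group means correlated at -0.48 to 0.39 (median -0.01). With the replicate block 7 members were raised in Ivl tumours, Csf3 being at 4.55 (adjusted p = 0.06), and 8 in K5/K14 tumours.

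Directions turned only for members that did not pass. With the replicate block, Ivl minus K5/K14 became -0.26 for Cxcl2 and -0.80 for Cxcl5, and K5 minus K14 became -0.23 for Csf3r and -0.23 for Retnlg. Without the set of 4, or with the set as a covariate, Ivl minus K5/K14 became 0.00 and 0.21 for Cxcl3 and 0.08 and 0.25 for Csf3, and with K5 and K14 as separate groups 0.09 for Csf3. Leaving out 1 library gave, for Ivl minus K5/K14, -0.30 to 0.30 for Cxcl2, -0.38 to 0.09 for Cxcl3, -0.61 to 0.89 for Cxcl5, -0.27 to 0.16 for Csf3, -0.03 to 0.37 for Csf3r, -1.28 to 0.00 for Ly6g and -0.81 to 0.12 for Retnlg. It gave, for K5 minus K14, -0.14 to 0.99 for Csf3r, -0.05 to 1.17 for Ly6g and -0.25 to 0.85 for Retnlg, and for Ivl against skin -0.05 to 1.86 for Retnlg. The cause was not tested.

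Genes changed among all tested numbered 11515 in Ivl against skin and 17566 without the set of 4, and 756 between Ivl and K5/K14 tumours but 46 to 2161 over the alternatives. Between K5 and K14 tumours they numbered 0, 174 with DESeq2 and 17 without the set of 4. Depth limits Ly6g, Mmp8 and the skin values of Csf3 and Cxcl3.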
